A study of Mus musculus with 7 samples.

Results

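The genes for 8 laminin chains (Lama1, Lama2, Lama3, Lama4, Lama5, Lamb1, Lamb2 and Lamc1) and for both nidogens (Nid1 and Nid2) were followed through the compartments of the embryonic mouse kidney and a kidney cell line. They were chosen by name, through the probe sets annotated to exactly 1 of them: 10 genes with 20 probe sets, of 18193 genes with 34945 such probe sets in all. RNA was hybridised to 7 Affymetrix mouse arrays: 1 of mIMCD-3, 2 of ureteric bud tips, 2 of ureteric bud stalks and 2 of metanephric mesenchyme. mIMCD-3 is a mouse inner medullary collecting duct line, here a freshly isolated subclone grown to confluency in DMEM, so its single array stands for 1 clone. The tissues were microdissected at E12.5, when the epithelium of the ureteric bud is branching within the mesenchyme around it. The labels give neither strain nor number of embryos, and they call the 2 arrays of a tissue biological replicates. Values are log2 intensities from the authors' robust multichip analysis (RMA), and differences are in log2 units.

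Laminins are trimers of an alpha, a beta and a gamma chain, secreted and assembled into the sheet that underlies epithelia. Nidogens bind the gamma chain encoded by Lamc1 and also bind type IV collagen, and so bridge the laminin and collagen networks. In the mouse kidney, basement membrane laminins surround the branching ureteric bud, and in embryonic mouse organs nidogen is known to be made mainly by mesenchymal cells.

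The labels were compared with marker genes first. The 6 markers of bud epithelium were all higher in tip and in stalk than in mesenchyme. Their summed intensity was 14158 in mIMCD-3, 15044 to 16561 in tip, 10044 to 10089 in stalk and 337 to 393 in mesenchyme. The sum follows the brightest markers and does not show Gata3. Gata3 was 4.48 in mIMCD-3, against 8.20 to 9.32 in bud and 4.55 and 4.59 in mesenchyme. All 4 bud tip markers were higher in tip than in mesenchyme, 2 of 4 were higher in stalk than in mesenchyme, and 3 of 4 were higher in tip than in stalk. Of 6 nephron progenitor markers 5 were lower in tip and 5 in stalk than in mesenchyme. The summed intensity of 6 renal stroma markers was 894 in mIMCD-3, 1642 to 2072 in tip, 14656 to 15108 in stalk and 14145 to 14746 in mesenchyme. All 6 were lower in tip than in mesenchyme, while 1 was lower in stalk, so the stalk dissections carried stromal markers near the mesenchymal level. Most of the stroma sum in mIMCD-3 came from Foxd1, at 9.57, against means of 6.38 in tip, 9.91 in stalk and 11.09 in mesenchyme. The other stroma markers lay between 3.20 and 5.73 in mIMCD-3. The sum of 9 endothelium markers was 264 in mIMCD-3, 762 to 811 in tip, 1963 to 2006 in stalk and 3011 to 3309 in mesenchyme. Against mesenchyme, lower markers in tip numbered 4 of 4 erythroid, 4 of 6 myeloid, 2 of 4 smooth muscle and 1 of 3 neural genes, and 1 myeloid gene was higher. In stalk these counts were 3, 1, 1 and 1. With the replicate number as a block, the myeloid markers in stalk were 1 higher and 2 lower, the smooth muscle markers lower in stalk were 2, and the nephron progenitor markers were 6 lower in tip and 6 in stalk. In the same fit, 5 myeloid and 2 neural markers were lower in tip, 3 bud tip markers were higher in stalk than in mesenchyme, and 1 bud tip marker was lower in tip than in stalk. Of 4 collecting duct markers, 3 were higher in tip and 3 in stalk. Aqp2, the water channel gene of the mature collecting duct, lay at 5.15 in mIMCD-3 and between 4.88 and 5.49 on the tissue arrays. Scnn1b and Scnn1g lay at 5.03 and 5.12 in mIMCD-3, below their bud arrays (6.64 to 7.18 and 7.33 to 7.88). Krt7 lay at 11.52 in mIMCD-3, against 4.45 to 9.13 on the tissue arrays. RMA gives no gene a value of 0. In bulk tissue, fewer cells of a type and less RNA per cell cannot be told apart.

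Promoters of 4 genes are shown for the opposite patterns described below: Lama5 and Lamb1 were higher in tip than in mesenchyme, and Nid1 and Lama2 were lower. Each line holds the 250 bases before the annotated start in RefSeq (GRCm38.p6), which had an entry for 5 of the 10 genes. Capitals mark the GC box GGGCGG and the CCAAT box CCAAT, searched on both strands.
Lama5, chr2:180225860-180226109, minus strand: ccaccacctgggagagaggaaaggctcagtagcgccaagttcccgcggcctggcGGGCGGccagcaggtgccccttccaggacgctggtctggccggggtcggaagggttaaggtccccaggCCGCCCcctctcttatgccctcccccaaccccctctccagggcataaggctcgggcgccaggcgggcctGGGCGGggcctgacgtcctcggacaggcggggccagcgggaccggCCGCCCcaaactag
Lamb1, chr12:31265043-31265292, plus strand: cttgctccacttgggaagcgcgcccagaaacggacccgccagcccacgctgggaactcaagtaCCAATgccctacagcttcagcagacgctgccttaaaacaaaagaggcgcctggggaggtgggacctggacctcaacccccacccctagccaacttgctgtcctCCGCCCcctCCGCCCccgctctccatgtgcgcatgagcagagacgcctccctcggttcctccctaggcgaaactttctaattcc
Nid1, chr13:13437352-13437601, plus strand: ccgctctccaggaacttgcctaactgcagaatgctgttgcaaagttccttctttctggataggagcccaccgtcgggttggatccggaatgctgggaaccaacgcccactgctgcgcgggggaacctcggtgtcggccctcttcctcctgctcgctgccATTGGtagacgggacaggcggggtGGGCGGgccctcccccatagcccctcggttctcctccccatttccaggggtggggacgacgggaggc
Lama2, chr10:27616943-27617192, minus strand: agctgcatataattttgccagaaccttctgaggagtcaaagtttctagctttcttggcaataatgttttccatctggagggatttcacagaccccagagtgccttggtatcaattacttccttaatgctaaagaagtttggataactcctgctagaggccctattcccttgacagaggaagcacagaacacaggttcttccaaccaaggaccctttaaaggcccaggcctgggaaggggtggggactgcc

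The Lama5 window held 4 GC boxes, the Lamb1 window 2 and the Nid1 window 1, while the Lama2 window held 0. Lamb1 and Nid1 each had 1 CCAAT box, and the marked boxes did not overlap. Of all 32851 promoter windows of this length in the table, 32.7% held a GC box and 33.8% a CCAAT box. The TATA box TATAAA (12.4% of all windows) and the grainyhead motif AACCNGTT (1.79%) were in none of these 4 windows. Bases G and C made up 72.4% of the Lama5 window, 62% of Lamb1, 64.4% of Nid1 and 47.2% of Lama2, with a median of 52.4% over all windows. The motifs thus did not divide the genes by direction, since Nid1 shared both boxes with Lamb1.

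The comparison of tip with mesenchyme split the family. Of the 10 genes, 4 were higher in tip (Lama1, Lama5, Lamb1 and Lamc1), 4 were lower (Lama2, Lama4, Nid1 and Nid2) and 2 were not called (Lama3 and Lamb2). A call is a limma p under 0.05 after Benjamini-Hochberg adjustment over all genes. Over all genes, 7.38% were called higher and 8.37% lower. The median difference of the 10 genes was 0.14, a value between both sets, and that of all genes was 0.01. In stalk against mesenchyme, 5 of the 10 genes were higher (4.3% of all genes) and 0 lower (1.24% of all genes; 0 also at an unadjusted p under 0.05), with medians of 0.76 for the 10 genes and -0.04 for all genes. In tip against stalk, 3 were higher (2.86% of all genes) and 4 lower (6.97%), with medians of -0.20 and 0.07. With the replicate block, 6 were higher and 0 lower in stalk against mesenchyme, and 4 higher and 4 lower in tip against stalk. That fit also called more of all 18193 genes: 1231 higher and 577 lower in stalk against mesenchyme, and 1623 and 2131 in tip against stalk. With the mean of all probe sets of a gene, 1 was higher and 4 lower in tip against stalk, with 544 and 1179 of all genes. Without stalk replicate 1 or 2, fewer of the 10 genes, and fewer of all genes, were called in both comparisons with stalk. The same held for stalk against mesenchyme without mesenchyme replicate 2. In tip against stalk, the calls of Lama5 and Lamc1 were lost without tip replicate 1 or either stalk array, and with the mean of all probe sets. The 3 comparisons share their groups and are not independent of each other.

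**Figure D1:**
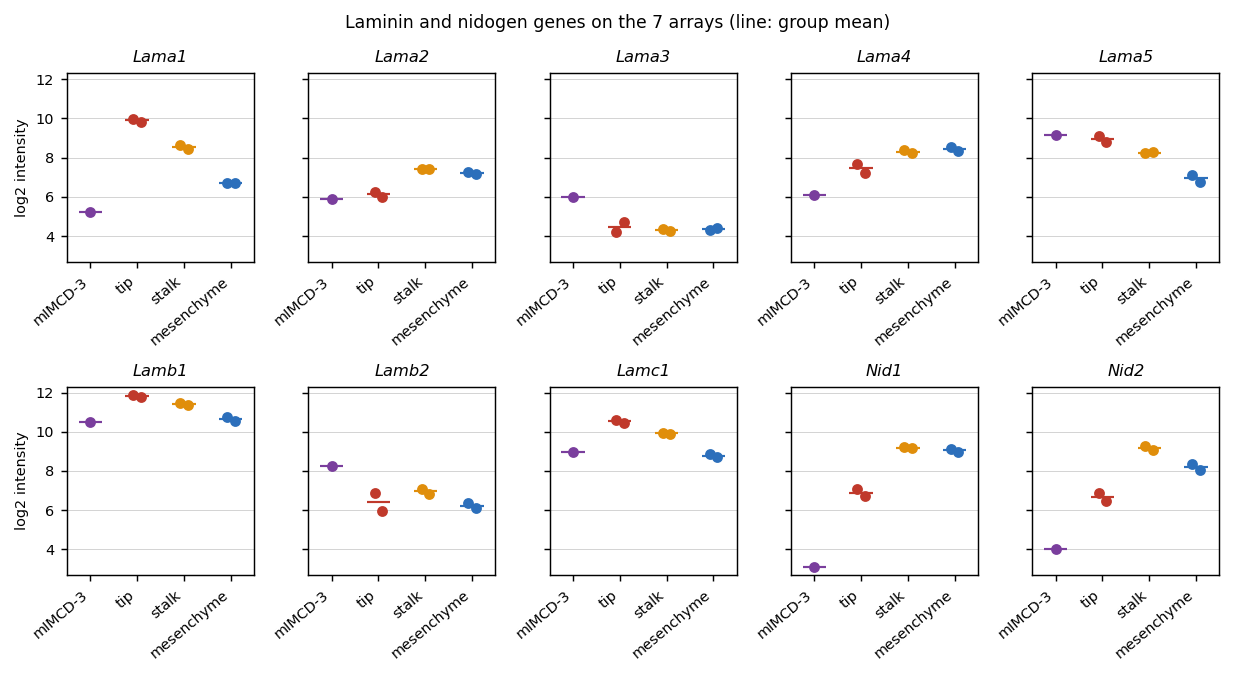
Log2 intensity (y axis) of each of the 10 genes on the arrays of mIMCD-3, tip, stalk and mesenchyme (x axis); points are arrays and lines are group means. Lama1, Lama5, Lamb1 and Lamc1 step down from tip to stalk to mesenchyme, whereas Nid1 and Nid2 are lowest in mIMCD-3 and lower in tip than in the other tissues.

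Among the alpha chains, Lama1 differed most between the tissues. Its product is the alpha chain of the laminin found early in embryonic epithelia. Lama1 lay at 9.98 and 9.83 in tip and at 8.63 and 8.44 in stalk, against 6.69 and 6.72 in mesenchyme. The 3 groups did not overlap, and tip was highest. It was 3.20 ± 0.13 (SE; 9.20-fold) higher in tip than in mesenchyme, 1.83 ± 0.13 (3.57-fold) higher in stalk than in mesenchyme, and 1.37 ± 0.13 (2.58-fold) higher in tip than in stalk (limma adjusted p = 5.79e-06, 0.000197 and 0.000633).

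Lama5 encodes the alpha chain that is widespread in epithelial basement membranes and that mouse mutants show to be needed for kidney development. It lay at 9.08 and 8.80 in tip and 8.23 and 8.27 in stalk, against 7.11 and 6.77 in mesenchyme. These groups were again separate and in the same order as for Lama1. The difference was 2.00 ± 0.16 for tip and 1.31 ± 0.16 (2.47-fold) for stalk against mesenchyme (limma adjusted p = 0.000116 and 0.00312), and 0.69 ± 0.16 (1.62-fold) for tip against stalk (limma adjusted p = 0.0382). The last call was lost without tip replicate 1 (adjusted p = 0.0868), stalk replicate 1 (0.22) or stalk replicate 2 (0.17), and with the mean of all Lama5 probe sets (0.0991).

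Lamb1 and Lamc1 encode the beta and gamma chains that pair with both of these alpha chains. Lamb1 lay at 11.87 and 11.77 in tip and 11.45 and 11.38 in stalk, against 10.73 and 10.57 in mesenchyme. It was 1.17 ± 0.13 (2.25-fold) higher in tip and 0.77 ± 0.13 (1.70-fold) higher in stalk than in mesenchyme (limma adjusted p = 0.00058 and 0.0135). Tip lay above stalk on both arrays, with a difference of 0.40 ± 0.13 that was not called (limma adjusted p = 0.111) but was called with the replicate number as a block (adjusted p = 0.0271). The Lamb1 call in stalk against mesenchyme was lost without stalk replicate 1 (adjusted p = 0.159), stalk replicate 2 (0.103) or mesenchyme replicate 2 (0.112), and with the mean of all Lamb1 probe sets (0.0712).

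Lamc1 lay at 10.62 and 10.45 in tip and 9.95 and 9.90 in stalk, against 8.85 and 8.70 in mesenchyme. Its groups did not overlap either. It was 1.76 ± 0.13 (3.38-fold) higher in tip and 1.15 ± 0.13 (2.22-fold) higher in stalk than in mesenchyme (limma adjusted p = 7.05e-05 and 0.00189), and 0.61 ± 0.13 (1.52-fold) higher in tip than in stalk (limma adjusted p = 0.0261). The last call was lost without tip replicate 1 (adjusted p = 0.0523), stalk replicate 1 (0.187) or stalk replicate 2 (0.218), and with the mean of both probe sets (0.0659). The genes of all chains of the trimer of Lama1, Lamb1 and Lamc1 products, and of that with Lama5 in place of Lama1, were therefore higher in tip and in stalk than in mesenchyme. The 6 markers of bud epithelium moved with these 4 genes in both comparisons, and 3 of 6 were higher in tip than in stalk (5 with the replicate block). Their part in the differences was not tested.

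**Figure D2:**
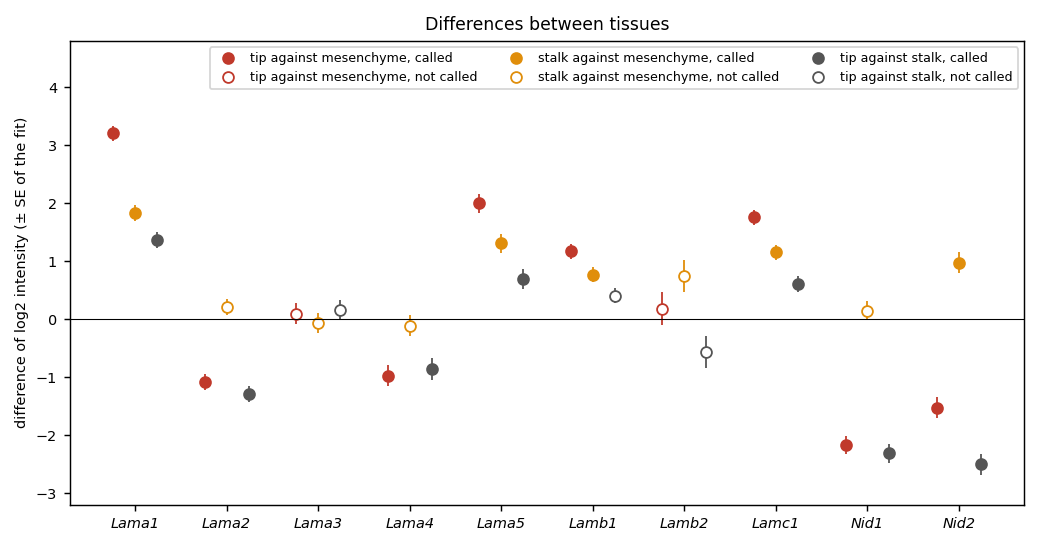
Difference of mean log2 intensity (y axis, with the SE of the limma fit) for tip against mesenchyme, stalk against mesenchyme and tip against stalk, for each gene (x axis); filled points were called and open points were not. Differences run from -2.50 for Nid2 in tip against stalk to 3.20 for Lama1 in tip against mesenchyme.

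Unlike Lamc1, whose product they bind, both nidogen genes were lower in tip than in mesenchyme. Nid1 lay at 7.06 and 6.70 in tip and at 9.22 and 9.16 in stalk, against 9.13 and 8.96 in mesenchyme. Tip stood clearly below the other tissues, which lay side by side. Nid1 was 4.49-fold lower in tip than in mesenchyme (-2.17 ± 0.16; limma adjusted p = 6.27e-05) and 4.98-fold lower in tip than in stalk (-2.32 ± 0.16; limma adjusted p = 0.00012). The difference of stalk from mesenchyme was 0.15 ± 0.16 (limma adjusted p = 0.817).

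Nid2, the second nidogen gene, lay at 6.86 and 6.48 in tip and at 9.27 and 9.07 in stalk, against 8.35 and 8.05 in mesenchyme. Here stalk was the highest tissue, and none of the groups overlapped. Nid2 was 2.89-fold lower in tip than in mesenchyme (-1.53 ± 0.18) and 5.66-fold lower in tip than in stalk (-2.50 ± 0.18; limma adjusted p = 0.000777 and 0.000142). It was 1.96-fold higher in stalk than in mesenchyme (0.97 ± 0.18; limma adjusted p = 0.0202). That call was lost without stalk replicate 1 (adjusted p = 0.147), stalk replicate 2 (0.0554) or mesenchyme replicate 2 (0.124).

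Lama2 and Lama4 were also lower in tip than in either other tissue. Lama2 encodes the alpha chain best known from muscle and nerve. It lay at 6.25 and 5.999 in tip and 7.40 and 7.43 in stalk, against 7.25 and 7.18 in mesenchyme. It was 2.13-fold lower in tip than in mesenchyme (-1.09 ± 0.14) and 2.45-fold lower in tip than in stalk (-1.29 ± 0.14; limma adjusted p = 0.0011 and 0.000898), and stalk differed from mesenchyme by 0.20 ± 0.14 (limma adjusted p = 0.663).

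Lama4, which encodes an alpha chain of vessel walls and other mesenchymal tissue, lay at 7.69 and 7.20 in tip and 8.37 and 8.24 in stalk, against 8.53 and 8.32 in mesenchyme. Only tip was set apart, since stalk and mesenchyme overlapped. Lama4 was 1.96-fold lower in tip than in mesenchyme (-0.97 ± 0.18) and 1.82-fold lower in tip than in stalk (-0.86 ± 0.18; limma adjusted p = 0.00914 and 0.0246). The first call was lost without mesenchyme replicate 1 (adjusted p = 0.056), and the second without tip replicate 2 (0.0624), stalk replicate 1 (0.152) or stalk replicate 2 (0.0789). The stroma and endothelium markers moved with the nidogens, Lama2 and Lama4: 6 of 6 and 8 of 9 were lower in tip than in mesenchyme, and likewise 6 of 6 and 8 of 9 in tip than in stalk. The nephron progenitor and erythroid markers also moved with them, with 5 of 6 and 4 of 4 lower in tip than in mesenchyme and likewise 5 of 6 and 4 of 4 in tip than in stalk, as did 4 of 6 and 3 of 6 myeloid markers. Of the 10 genes 0 were lower in stalk than in mesenchyme, which is near the share of all genes (1.24%). Lower markers in that comparison numbered 1 of 6 stroma, 4 of 9 endothelium, 5 of 6 nephron progenitor, 3 of 4 erythroid and 1 of 6 myeloid genes. With the replicate block, 7 endothelium, 6 nephron progenitor and 2 myeloid markers were lower in stalk. The part of the markers in the differences of the nidogens, Lama2 and Lama4 was not tested.

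Lamb2 and Lama3 were not called in any of the 3 comparisons. Lamb2, the beta chain gene of the mature glomerular and neuromuscular basement membranes, lay at 6.87 and 5.93 in tip and 7.08 and 6.85 in stalk, against 6.35 and 6.09 in mesenchyme. The tip arrays spanned those of mesenchyme. Stalk against mesenchyme was 0.74 ± 0.28 (limma adjusted p = 0.287). This difference was called with the replicate block (adjusted p = 0.0286) and with only the arrays of both groups (adjusted p = 0.0346). For this comparison, leaving out either tip array repeats the latter fit. Without tip replicate 1, tip against stalk was -1.03 and was called (adjusted p = 0.0164), and tip against mesenchyme was -0.29 (adjusted p = 0.309), against 0.18 with all arrays (0.82).

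Lama3 encodes the alpha chain that, in a trimer with the Lamb3 product, anchors skin and other stratified epithelia. It lay at 4.21 and 4.70 in tip and 4.35 and 4.25 in stalk, against 4.31 and 4.41 in mesenchyme. All 3 groups overlapped, close to the lower quartile of the probe sets with 1 gene on these arrays (4.34 to 4.54).

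The brighter probe sets of Lama4, Lama5, Lamb1, Lamc1 and Nid1 gave differences of the same sign in tip against mesenchyme. Each of the 20 probe sets was also fitted by itself. For Lama3, Lama5, Lamb1 and Nid1, 1 probe set each had no array above 4.48 and differed by at most 0.44 in size between any tissues. The remaining Lamb1 probe sets gave 1.504 and 1.38 for tip against mesenchyme, and the second bright Lama5 probe set gave 1.92. The second Lamc1 probe set gave 1.00 in place of 1.76. The second bright Nid1 probe set gave -1.04 in place of -2.17, so the size for Nid1 depended on the probe set by over 1 log2 unit while its direction did not. The second Lama4 probe set gave -0.94, close to the first.

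**Figure D3:**
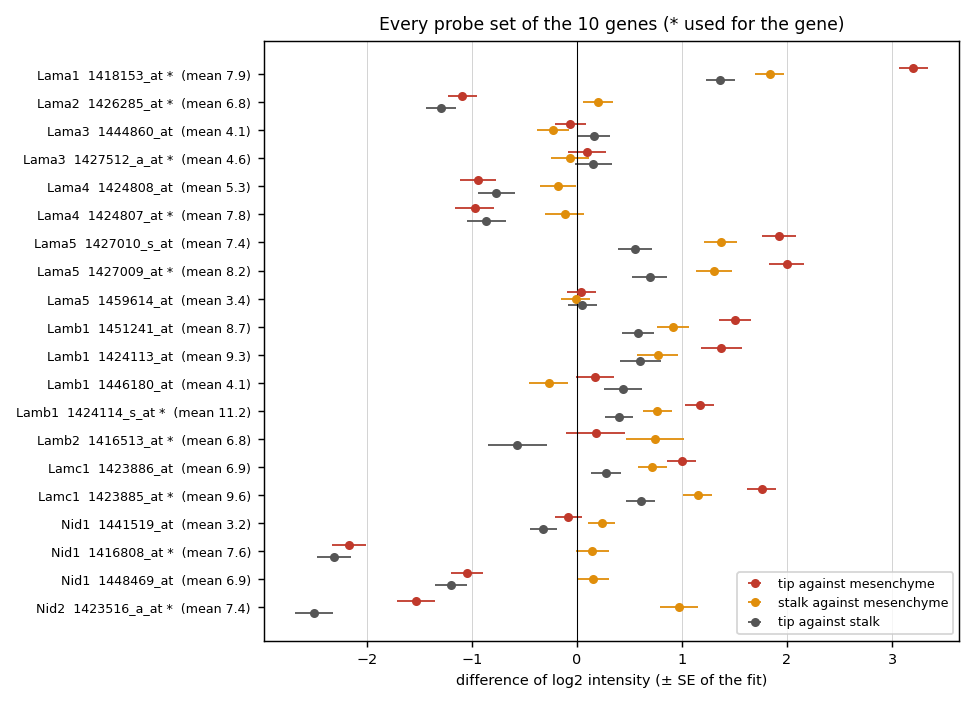
Differences of log2 intensity (x axis, with the SE of a limma fit over all probe sets with 1 gene) for each of the 20 probe sets (y axis, with the mean log2 intensity over the 7 arrays). The dim probe sets of Lama3, Lama5, Lamb1 and Nid1 stay within 0.44 of 0, and the brighter ones of Lama4, Lama5, Lamb1, Lamc1 and Nid1 point the same way in tip against mesenchyme.

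The patterns were also compared gene by gene, as the root mean square (RMS) difference of log2 values after centring each gene on its mean over the 6 tissue arrays. The closest pair was Lama5 and Lamc1 (0.12), then Lama2 and Lama4 (0.20) and Lamb1 and Lamc1 (0.25), with Nid1 and Nid2 at 0.36. The larger steps of Lama1 put it 0.51 from Lama5. Over the 7 arrays and all genes, the gene nearest to Lama1 was Cadps2 (RMS 0.19, where the median gene lay at 1.66). Nid1 was nearest to Frem1 (0.20, median 2.09), which encodes a basement membrane protein of the Fraser complex. Nid2 was nearest to Arhgap28 (0.21), Lama5 to Diaph2 (0.12), Lamc1 to Sirt5 (0.12), Lamb1 to Gjb1 (0.10), Lama2 to Mylip (0.09), Lama4 to Mapre2 (0.08), Lamb2 to Rbl2 (0.08) and Lama3 to Atg2a (0.08). These distances describe 7 arrays and carry no test.

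Other basement membrane genes also went both ways. Of 27 measured, 10 were higher (7.38% of all genes) and 5 lower (8.37%) in tip than in mesenchyme. In stalk against mesenchyme 10 were higher (4.3% of all genes) and 1 lower (1.24%). With the replicate block 12 were higher and 1 lower, with 1231 and 577 of all 18193 genes. In tip against stalk 2 were higher (2.86% of all genes) and 6 lower (6.97%). With the replicate block 5 were higher and 7 lower, with 1623 and 2131 of all 18193 genes. The medians of the 27 genes were 0.06, 0.36 and -0.06, against 0.01, -0.04 and 0.07 for all genes. Npnt, which encodes nephronectin, a ligand of integrin alpha 8 beta 1, was 4.82 ± 0.14 higher in tip and 3.46 ± 0.14 higher in stalk than in mesenchyme (limma adjusted p = 1.6e-06 and 1.2e-05). The Fraser complex genes did not move together. Frem2 was 4.52 ± 0.13 higher and Fras1 1.57 ± 0.16 higher in tip than in mesenchyme (limma adjusted p = 1.6e-06 and 0.000404), whereas Frem1 had a difference of -2.13 ± 0.20 (limma adjusted p = 0.00023). Frem1 lay at 6.70 and 6.21 in tip and 9.22 and 9.05 in stalk, against 8.75 and 8.41 in mesenchyme. Like Nid1, it was lowest in tip among the tissues, and its 0.55 ± 0.20 in stalk against mesenchyme (limma adjusted p = 0.246) was called with the replicate block (0.0177). Col18a1, the gene of collagen XVIII, was 1.57 ± 0.13 higher in tip and 1.51 ± 0.13 higher in stalk than in mesenchyme (limma adjusted p = 0.000105 and 0.000396). Egflam, the pikachurin gene, had a difference of -1.94 ± 0.18 in tip against mesenchyme (limma adjusted p = 0.000192). Of the other laminin chains, Lamb3 and Lamc3 were not called in any of the 3 comparisons. Lamc3 in tip against stalk (-0.61 ± 0.16, limma adjusted p = 0.0506) was called with the replicate block (adjusted p = 0.0136), and with only the arrays of both groups (0.0496). Of the 27 genes, without stalk replicate 1, the count called in stalk against mesenchyme was 5, and without stalk replicate 2 it was 7.

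Of the 10 laminin receptor genes, 5 were higher in tip than in mesenchyme (7.38% of all genes) and 4 in stalk (4.3%). In both comparisons 0 were lower (8.37% and 1.24% of all genes), and 0 and 1 at an unadjusted p under 0.05 with limma. With the replicate block, 5 were higher and 1 lower in stalk, with 1231 and 577 of all 18193 genes. The medians of the 10 receptor genes were 0.45 and 0.42, against 0.01 and -0.04 for all genes. Itga3, the laminin-binding integrin alpha 3 gene, lay at 8.68 and 8.47 in tip and 7.61 and 7.59 in stalk, against 6.68 and 6.62 in mesenchyme. It was highest in tip and lowest in mesenchyme among the tissues and was called in all 3 comparisons, with 1.92 ± 0.13 in tip and 0.94 ± 0.13 in stalk against mesenchyme and 0.98 ± 0.13 in tip against stalk (limma adjusted p = 4.5e-05, 0.00512 and 0.0029). The Itga3 call in stalk against mesenchyme was lost with the mean of all Itga3 probe sets (0.33; adjusted p = 0.204) and without stalk replicate 1 (adjusted p = 0.0563). Bcam, a receptor gene for the Lama5 product, was 2.41 ± 0.15 higher in tip and 2.01 ± 0.15 higher in stalk than in mesenchyme (limma adjusted p = 2.85e-05 and 0.000228). Dag1, the dystroglycan gene, was 1.28 ± 0.13 and 0.80 ± 0.13 higher in the same comparisons (limma adjusted p = 0.000384 and 0.0117). The second Dag1 call was lost without stalk replicate 1 (adjusted p = 0.113), stalk replicate 2 (0.111) or mesenchyme replicate 2 (0.1). Itga6 was 1.28 ± 0.17 higher in tip than in mesenchyme (limma adjusted p = 0.00132). Its 0.68 ± 0.17 in stalk was not called (adjusted p = 0.0685) but was with the replicate block (0.00386) and with only the arrays of both groups (0.0466). Itgb1, the shared beta chain gene of these integrins, differed by -0.27 ± 0.13 in tip and 0.06 ± 0.13 in stalk from mesenchyme (limma adjusted p = 0.276 and 0.934), and the stalk value was -0.041 once arrays were centred on their medians. In tip against stalk 1 receptor gene was higher (2.86% of all genes). With the replicate block 4 were, with 1623 of all 18193 genes. In stalk against mesenchyme the count was 1 without stalk replicate 1, and 2 without stalk replicate 2 or mesenchyme replicate 2.

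**Figure D4:**
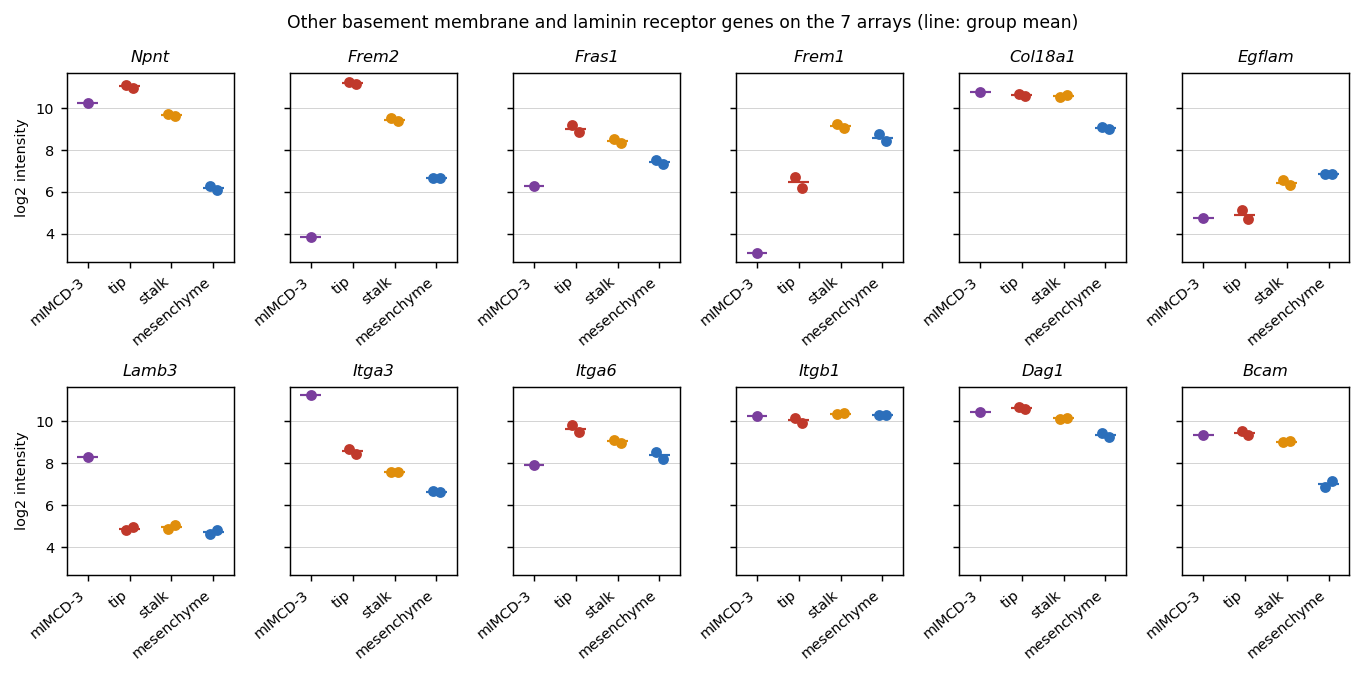
Log2 intensity (y axis) of 12 other basement membrane and laminin receptor genes on the arrays of mIMCD-3, tip, stalk and mesenchyme (x axis); points are arrays and lines are group means. Npnt, Frem2, Fras1 and Itga3 step down from tip to stalk to mesenchyme, Frem1 and Egflam are lower in tip than in stalk and mesenchyme, and Lamb3 and Itga3 are highest in mIMCD-3.

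The mIMCD-3 line, from an epithelium that descends from the ureteric bud, was set beside the bud and the mesenchyme. Its single array was added after the tissue arrays, so the line and its hybridisation cannot be told apart, and no test was made. By size, 2 of the 10 genes were at least 1 log2 unit higher in mIMCD-3 than the mean of the 4 bud arrays (9.75% of all genes), 6 were at least 1 lower (9.33% of all genes) and 2 lay between. With the mean of all probe sets of a gene, 5 in place of 8 passed this size. Against the mesenchyme mean, 3 were higher (11.2% of all genes) and 5 lower (9.78%).

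Both nidogen genes lay below all tissue arrays in mIMCD-3. Nid1 was 3.11 in mIMCD-3, against 6.70 to 9.22 on the tissue arrays, and Nid2 was 3.99, against 6.48 to 9.27. On the probe sets used for the genes, both lay below the lower quartile of the mIMCD-3 array (4.28), where RMA compresses differences. On these, Nid1 lay 4.92 and Nid2 3.93 below the bud mean. The second bright Nid1 probe set was 5.06 in mIMCD-3, above that quartile, against 6.42 to 7.83 on the tissue arrays. With the mean of its 3 probe sets, 1 of them dim on all arrays, Nid1 differed from bud by -2.305. The bud mean pools tip with stalk, and these differed for both genes. Nid1 had means of 6.88 in tip and 9.19 in stalk, and Nid2 of 6.67 and 9.17. The gap from mIMCD-3 to tip alone was therefore smaller than that to the bud mean.

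The alpha chains parted in the line. Lama1 was 5.21 in mIMCD-3, against 8.44 to 9.98 in bud and 6.69 and 6.72 in mesenchyme, and so lay 4.01 below the bud mean. Lama5 was 9.18 in mIMCD-3, above the 8.23 to 9.08 of the bud arrays and 0.58 above their mean. Lama4 lay 1.78 and Lama2 0.90 below the bud mean. For both, tip was nearer to mIMCD-3 than stalk was. Lama4 was 6.10 in mIMCD-3, with means of 7.45 in tip and 8.31 in stalk, and Lama2 was 5.87, with means of 6.13 and 7.42. Lama3 was 5.98 in mIMCD-3, against 4.21 to 4.70 in tissue, 1.60 above the bud mean, but its other probe set was 4.33 in mIMCD-3, against 3.85 to 4.29 in tissue, and the mean of both gave 0.95.

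Lamb1 was 10.49 in mIMCD-3, against 11.38 to 11.87 in bud, and lay 1.13 below the bud mean (a difference of -0.72 with the mean of its probe sets). Lamc1 was 8.98 in mIMCD-3, against 9.90 to 10.62 in bud, and lay 1.25 below. The gap was smaller on its second probe set, with 6.46 in mIMCD-3, against 7.01 to 7.45 in bud. From the mesenchyme mean Lamb1 and Lamc1 differed by -0.16 and 0.21, and the first turned to 0.08 with the mean of the Lamb1 probe sets. Lamb2 was higher than in bud, with 8.25 in mIMCD-3, against 5.93 to 7.08 on the tissue arrays and 1.57 above the bud mean. Lamb3, the beta chain gene that pairs with Lama3, was 8.32 in mIMCD-3, against 4.63 to 5.04 in tissue, 3.41 above the bud mean.

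For mIMCD-3, the genes named from the other lists were picked with their values in view. Of the 27 other basement membrane genes, 5 were at least 1 log2 unit higher than in bud (9.75% of all genes) and 11 lower (9.33%). Col4a1 and Col4a2, which encode the common type IV collagen chains that nidogens bind, lay 5.68 and 4.89 below the bud mean, and Col4a4 lay 3.45 above it. Of the 10 receptor genes 3 were higher (9.75% of all genes) and 1 lower, the latter near the share of all genes (9.33%). Itga3 was 11.25 in mIMCD-3, against 6.62 to 8.68 in tissue, and Itgb4, the hemidesmosomal integrin beta 4 gene, was 8.08, against 4.75 to 5.19. Itga6, the partner of Itgb4, lay 1.44 below the bud mean. Dag1, Bcam and Itgb1 lay within 0.10 of the bud mean.

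**Figure D5:**
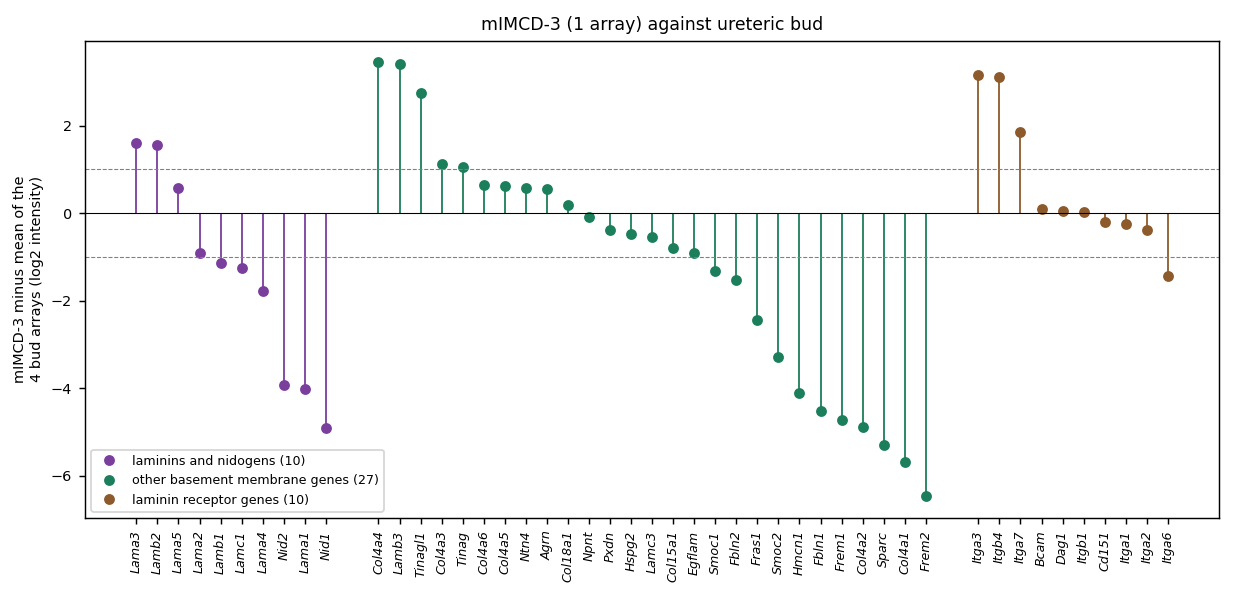
Log2 intensity of mIMCD-3 minus the mean of the 4 bud arrays (y axis) for the 10 laminin and nidogen genes, 27 other basement membrane genes and 10 laminin receptor genes (x axis); dashed lines mark 1 log2 unit. Nid1 is 4.92 and Lama1 4.01 below the bud mean, while Lamb3 is 3.41 and Itga3 3.16 above it.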

How the data were processed

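The authors deposited RMA intensity values on a linear scale for 7 Affymetrix arrays, calculated over all arrays together per the series' design text, and the submitters' processing notes name RMA without a version. RMA corrects background, equalises probe distributions and summarises each probe set, and it compresses differences of dim genes. No detection calls or scanner values were used here. Values, from 5.08 to 19587, were turned to log2. Of 45101 probe sets, 64 are controls, 34945 list 1 gene, 932 several and 9160 none. Each gene took its probe set with the highest mean over the 7 arrays. Nothing was filtered out.

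The 6 tissue arrays were fitted with limma 3.58.1 (R 4.3.3), with a coefficient per group and two-sided tests, and the fit was tested on simulated data. Across probe sets, replicate arrays correlated at 0.990 to 0.997. Probe sets are not replicates, and the number of arrays limits precision. The differences of replicate 1 minus replicate 2 correlated at 0.57 between tip and mesenchyme, 0.39 between stalk and mesenchyme and 0.43 between tip and stalk, across probe sets. The labels state no pairing. All exceeded 0.1, so a fit blocked on the replicate number was run as an alternative to the reported fit, which has no pairing. Its value stands beside calls of named genes, and counts of the gene lists, that it changed. Other alternatives were the probe set choice, the variance model, a filter on dim genes, median centring, the arrays in the fit, and leaving out each array. Figures were drawn with matplotlib 3.10.9.

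The 10 genes and the lists were chosen with earlier results of these data known. All 10 were to be named, with up to 5 called genes of the largest difference per list and comparison (the text gives some of them), a fixed set of genes (Lamb3, Lamc3, Itga3, Itga6, Itgb1 and Dag1 among them), and the 3 genes nearest in pattern to each, of which the text gives the nearest. Marker lists covered bud epithelium, bud tip, nephron progenitor, renal stroma, endothelium, smooth muscle, erythroid, myeloid, neural and collecting duct genes. Promoters came from RefSeq (GRCm38.p6).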

Additional observations from a re-analysis of the deposited data

How the results depend on the processing

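Centring the arrays on their medians shifted the median of all genes by 0.12 in tip against stalk, where 1024 genes were then higher and 1085 lower, against 521 and 1268 without it, and shifted the other comparisons by less than 0.1. With the replicate block, genes called numbered 4368 in tip against mesenchyme (2865 without it), 1808 in stalk against mesenchyme (1007) and 3754 in tip against stalk (1789). The block changed the call of Lamb1 (0.40; adjusted p = 0.0271) and Lamb2 (0.74; adjusted p = 0.0286) and of no other of the 10 genes. Receptor genes called in tip against stalk were 1, and 4 with the block, 2 with the mean of all probe sets, 4 with trend and robust variance, 3 without the dimmest 40% of genes (fewer genes tested) and 3 with centring. Of the 10 genes, those past 1 log2 unit in mIMCD-3 against bud were 8, and 5 with the mean of all probe sets.

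Across probe sets, the SD of replicate 1 minus replicate 2 was 0.35 in tip, 0.19 in stalk and 0.26 in mesenchyme. Leaving out 1 array takes the spread from the other groups alone, and can lower or raise the counts. It gave 7 to 8 of the 10 genes called in tip against mesenchyme, 3 to 6 in stalk against mesenchyme and 4 to 7 in tip against stalk, with 2010 to 3193, 523 to 1238 and 929 to 2558 of all genes. The count of all genes moved by over 1.5 times without stalk replicate 1 (523) or 2 (565) and mesenchyme replicate 1 (658) or 2 (629) in stalk against mesenchyme, and without stalk replicate 1 (929) or 2 (997) in tip against stalk. Other basement membrane genes called were 11 to 15, 5 to 11 and 6 to 8, and receptor genes 4 to 5, 1 to 5 and 1. Signs turned in genes that were not called: Lama3 ranged from -0.15 to 0.34 (tip against mesenchyme) and -0.0883 to 0.40 (tip against stalk), Lamb2 (tip against mesenchyme) from -0.29 to 0.64, Cd151 (tip against stalk) from -0.0045 to 0.0642, Lamb3 (tip against stalk) from -0.15 to 0.0390 and Lamc3 (tip against mesenchyme) from -0.27 to 0.0425. With centring Itgb1 in stalk against mesenchyme was -0.0408 and Lamb3 in tip against stalk 0.0608. A probe set chosen after the data were seen gave -0.0613 for Lama3 in tip against mesenchyme, and dim ones gave -0.0097 for Lama5 and -0.27 for Lamb1 in stalk against mesenchyme. The cause of these changes was not tested. With 2 arrays a tissue, the number of arrays limits the precision.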
